A study of Rattus norvegicus with 2 samples.

Results

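Transient receptor potential (TRP) and Piezo genes encode cation channels of the cell surface and of internal membranes, and 9 of them were followed here in sympathetic neurons of the rat stellate ganglion. The 9 genes, Trpc1, Trpc5, Trpc6, Trpm4, Trpm7, Trpv1, Trpv2, Piezo1 and Piezo2, were found by symbol among 25395 genes, and each of them has a line in both libraries. Single cells of dissociated stellate ganglia, whose neurons innervate the heart, were sequenced with 10x Genomics 3′ v3 chemistry with 1 library for each of 2 strains, the normotensive Wistar rat and the prehypertensive SHR (spontaneously hypertensive rat). The animals of both strains were males of 5 to 6 weeks of age with no treatment named, and how many were pooled for a library is not given in the sources used here. SHRs are an inbred strain selected for high blood pressure and Wistar rats are outbred, so strain background and prehypertension cannot be told apart in this comparison. For the cells clustered as sympathetic neurons, 1 mean per gene and library was used, expressed as counts per 10000 counts of a cell.

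Most TRP channels admit cations, often with calcium among them, and those at the cell surface tend to depolarise the cell. TRPC channels open downstream of receptors coupled to phospholipase C, TRPM channels respond to calcium, magnesium or temperature, and TRPV channels respond to heat, ligands or stretch. Piezo channels are opened by membrane tension, and Piezo2 is known from touch and proprioceptive afferents.

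Each strain has a single library, and no difference between the strains can therefore be given an error or a test. A ratio of means of at least 1.5-fold, among genes averaging at least 0.1 per 10000 over both libraries, was used as a rule of size. The number of neurons and their depth are not given. Some guide to the precision comes from the lowest values, because a single count in a single neuron adds to a mean an amount set by the depth of that neuron, and genes with 1 count in the same neuron share a value exactly. The smallest mean above 0 was 0.000140 per 10000 in Wistar, shared exactly by 16 genes, and 0.000391 in SHR, shared by 17. The values shared exactly by at least 3 genes had a median of 0.000327 in Wistar and 0.000906 in SHR, and this shared value is the scale used here for low means. The lowest SHR level that can be seen was thus coarser, and values near these sizes rest on very few counts. The 3′ chemistry counts transcript ends, so levels were compared between genes without division by length.

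The cluster carried its sympathetic label in both libraries. The 12 sympathetic markers summed to 74.4 per 10000 in Wistar and 65.8 in SHR, led by Slc6a2, the norepinephrine transporter, with 15.9 and 15.2. Of these 12 markers, 9 were lower and 3 were higher in SHR. Ddc had 7.05 per 10000 in Wistar and 3.44 in SHR, and Dbh had 10.2 and 6.36, while Th had 10.2 and 10.1. Markers of other cells were present at lower sums, and these sums were lower in SHR for each of 7 lists, by between 1.34-fold for erythrocytes and 4.36-fold for fibroblasts. Satellite glia and Schwann cell markers summed to 20.9 per 10000 in Wistar and 12.4 in SHR, with 10 of 11 detected genes lower. Immune markers summed to 1.29 and 0.425, fibroblast markers to 2.12 and 0.488, endothelial markers to 0.183 and 0.130, smooth muscle and pericyte markers to 0.128 and 0.0731, and erythrocyte markers to 0.0669 and 0.0499. Among the defining markers Ncmap of Schwann cells, Cd3e of T cells and Hba-a3 and Alas2 of erythrocytes were listed at 0 in both libraries. Sensory neuron markers summed to 6.09 and 2.40, most of which was Avil at 5.15 and 1.72. The sensory markers Mrgprd, Mrgprx3, Prdm12, Pvalb and Pou4f1 were listed at 0 in both. The part of the other cells in the TRP differences was not tested.

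**Figure D1:**
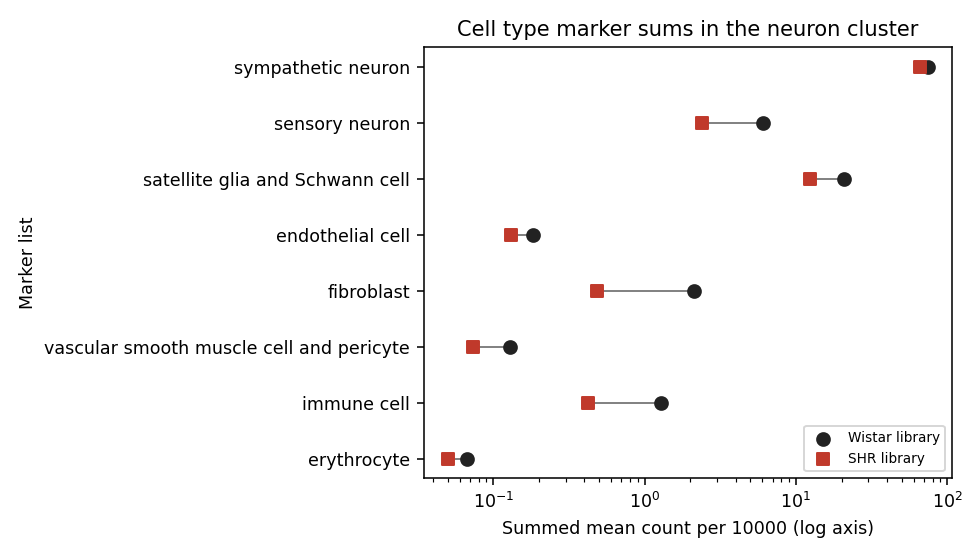
Summed mean count per 10000 (log axis) of 8 cell type marker lists in the neuron cluster, with circles for the Wistar library and squares for the SHR library. The sympathetic sum was 74.4 in Wistar and 65.8 in SHR, and the sums of the 7 other lists were lower in SHR by 1.34-fold to 4.36-fold.

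Of the 9 genes, 4 averaged at least 0.1 per 10000, and these were Trpv2, Trpm7, Trpc1 and Trpm4. Trpv1, Trpc6 and Piezo1 were above 0 but under that minimum, and Trpc5 and Piezo2 were listed at 0 in both libraries. Over all 25395 genes, 7621 were past the minimum and 9006 were at 0 in both libraries. The order of levels in Wistar was Trpv2, Trpm7, Trpc1, Trpm4, Trpv1, Trpc6 and Piezo1. In SHR the order was Trpv2, Trpc1, Trpm7, Trpm4, Trpv1 and Trpc6, so that Trpm7 and Trpc1 changed places. Without replicates it cannot be said which neighbours in these orders differ beyond their spread. The 9 means summed to 2.15 per 10000 in Wistar and 1.53 in SHR, and Trpv2 alone made up 42.0% of this sum in Wistar and 53.7% in SHR.

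**Figure D2:**
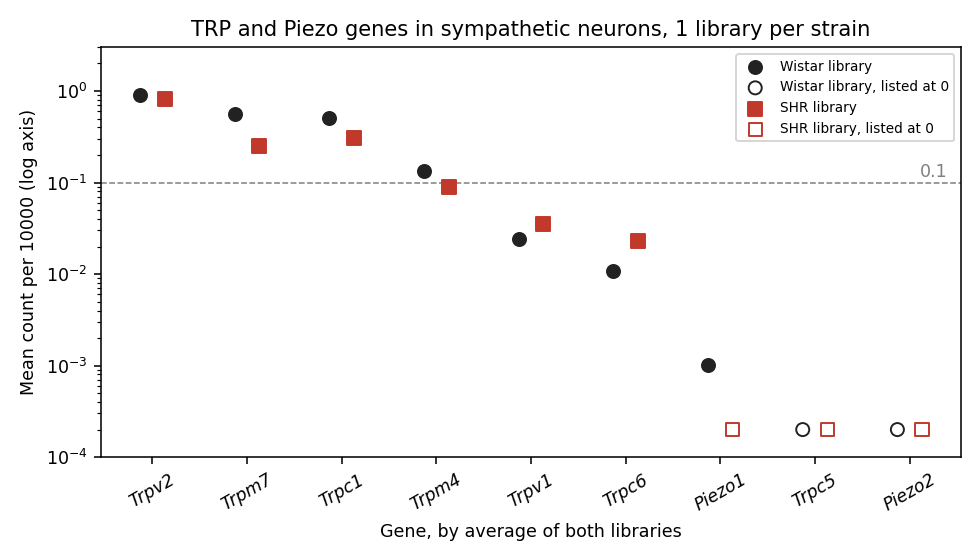
Mean count per 10000 (log axis) of the 9 genes in the sympathetic neurons, with circles for the Wistar library and squares for the SHR library, 1 value each. Open symbols mark genes listed at 0 and are drawn at an arbitrary height, and the dashed line is the minimum of 0.1. Trpv2, Trpm7 and Trpc1 stand above the line in both libraries and Trpm4 in Wistar alone, while Trpv1 and Trpc6 are higher in SHR at levels below it.

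The stretches before the transcription start of Trpv2, Trpm7 and Trpm4 are shown because these are the genes past the minimum for which RefSeq gave a promoter. They are the 250 bases before the start in the RefSeq assembly GRCr8, which is not the build of the deposited values, written 5′ to 3′ on the strand of the gene with CG dinucleotides in capitals.
Trpv2, chr10:47771973-47772222, plus strand: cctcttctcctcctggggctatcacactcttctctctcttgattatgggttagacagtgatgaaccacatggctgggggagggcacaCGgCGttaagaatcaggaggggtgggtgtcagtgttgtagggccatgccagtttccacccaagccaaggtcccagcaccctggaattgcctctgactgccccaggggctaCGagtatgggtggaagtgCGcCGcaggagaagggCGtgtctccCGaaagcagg
Trpm7, chr3:134588114-134588363, minus strand: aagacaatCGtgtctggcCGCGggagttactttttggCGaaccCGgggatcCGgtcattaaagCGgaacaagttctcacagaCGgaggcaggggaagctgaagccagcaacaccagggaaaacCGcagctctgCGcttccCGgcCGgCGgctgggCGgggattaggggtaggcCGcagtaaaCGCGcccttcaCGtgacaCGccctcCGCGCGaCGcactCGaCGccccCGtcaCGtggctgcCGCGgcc
Trpm4, chr1:104948237-104948486, minus strand: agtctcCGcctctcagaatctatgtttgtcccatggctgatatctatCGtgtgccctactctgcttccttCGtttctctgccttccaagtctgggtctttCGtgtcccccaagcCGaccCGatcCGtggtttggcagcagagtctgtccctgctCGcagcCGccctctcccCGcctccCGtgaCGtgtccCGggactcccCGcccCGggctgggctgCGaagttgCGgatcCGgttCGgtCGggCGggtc
Of the 9 genes, 7 were matched to a promoter. The stretch before Trpm7 holds 29 CG dinucleotides, a number reached by 6.04% of the 33469 rat promoters of this length. The stretch before Trpm4 holds 21, reached by 15.1%, and that before Trpv2 holds 7, reached by 45.2%, with a median of 5 over all promoters. The 2 genes listed at 0 in both libraries had 10 (Trpc5) and 19 (Piezo2), and Trpv1 and Trpc6 had 6 and 17, so the number of CG dinucleotides did not follow the order of the transcript levels. The E-box letters CACGTG, which read the same on both strands and were looked for after the sequence had been seen, occur 2 times before Trpm7 and not before the other 6 matched genes. At least 1 such match is present in 5.59% of all promoters, and at least 2 are present in 0.430%.

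All 4 genes past the minimum had a lower mean in SHR without centring, which was also the direction of 65.6% of the 7621 genes past the minimum. With the median gene set to 0, 3 of the 4 were lower, against an even split of all genes by construction. The uncentred median log2 ratio of means of the 4 genes was -0.66, against -0.21 over all genes. By the rule of size, 2 of the 4 were lower by at least 1.5-fold and 0 were higher, against 26.5% and 5.22% of all genes past the minimum. With so few genes, these counts are a description. Trpm4 passed the minimum through its Wistar value alone, so its place among the lower genes is partly set by the minimum. Setting the median log2 ratio of all genes past the minimum to 0, which adds 0.21 to each ratio on the log2 scale, left 1 gene lower by at least 1.5-fold and 3 lower by any size, since the ratio of Trpv2 turned to the higher side. The share of all genes lower by at least 1.5-fold under this centring was not computed.

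Trpm7, which encodes a channel fused to a protein kinase and is known for magnesium handling, differed most between the strains among the 4. In Wistar its mean was 0.568 per 10000 and in SHR it was 0.253, a level 2.24-fold lower and a fall in rank from 3064 to 4740 among all genes. The log2 difference on the deposited scale, log2 of 1 plus the mean, was -0.32, since the added 1 makes differences of low means smaller. Among 2978 genes averaging 0.3 to 1 per 10000, 24.5% were lower by at least 1.5-fold and 5.94% had a ratio as low as that of Trpm7. Trpm7 was the gene that was lower by at least 1.5-fold under the centring, and it also passed a limit of 2-fold.

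Trpc1, a subunit that assembles with other TRPC subunits, followed at a similar level. Neurons of the Wistar library had a mean of 0.510 per 10000 and those of the SHR library one of 0.307, 1.66-fold lower, with a log2 difference of -0.21 on the deposited scale. In the same range of averages, 17.7% of genes had a ratio as low. Within a library the ratio of Trpc1 to Trpm7 was 0.897 in Wistar and 1.21 in SHR, a comparison that does not depend on how the libraries were scaled.

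Trpm4, which encodes a calcium-activated channel for monovalent cations, was at 0.133 per 10000 in the Wistar library and at 0.0890 in the SHR library. It stood just outside the rule of size with a ratio of 0.668, while Trpc1 was inside with 0.603. It passed the minimum through its Wistar value alone. Among the 2967 genes averaging 0.1 to 0.3 per 10000, 37.0% were lower by at least 1.5-fold, so a ratio of this size was common at this level.

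Trpv2, a vanilloid-group channel reported to respond to strong heat and to stretch, was the most abundant of the 9 genes and differed least among the 4. The Wistar mean of 0.902 per 10000 ranked 1929 among all genes and the SHR mean of 0.822 ranked 1953. The level was 1.10-fold lower in SHR, against a median of 0.862 for the ratio of genes averaging 0.3 to 1 per 10000, so its ratio of 0.911 was above that median. Relative to Trpv2 in the same library, the level of Trpm7 was 0.630 in Wistar and 0.308 in SHR, that of Trpc1 was 0.565 and 0.374, and that of Trpm4 was 0.148 and 0.108.

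**Figure D3:**
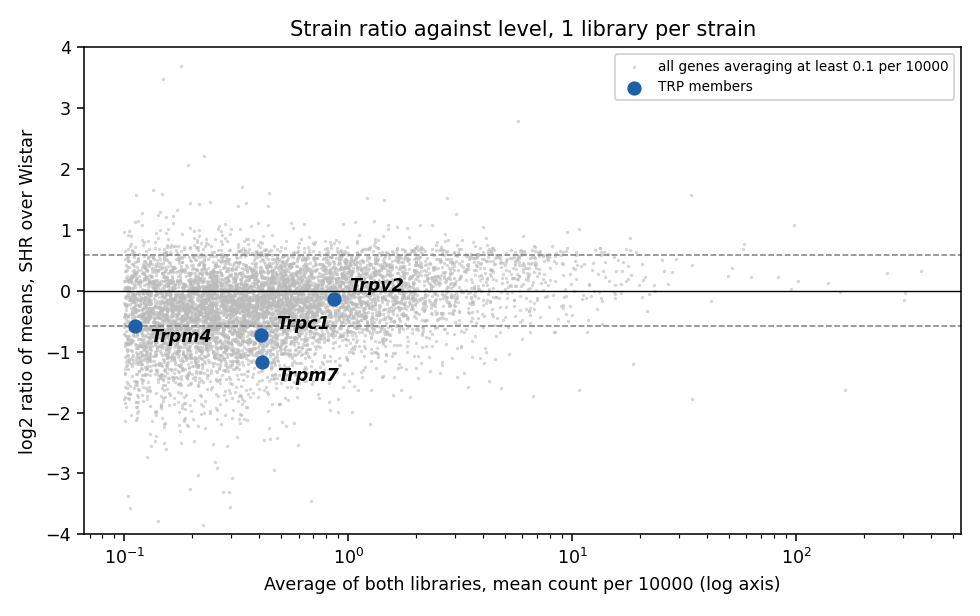
The log2 ratio of means, SHR over Wistar, against the average of both libraries (mean count per 10000, log axis) for 7621 genes in grey and the 4 TRP genes in blue, with dashed lines at 1.5-fold. Trpm7 and Trpc1 lie below the lower line, Trpm4 lies on it, and Trpv2 is near 0. The axis leaves out 6 genes with a larger ratio.

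Gene length moved with the strain difference over the whole set of genes. The 7291 of them past the minimum and with a span in GRCr8 were ordered by span into 10 groups, and the share of genes lower in SHR went from 27.0% in the shortest group to 85.6% in the longest. Trpm7 was in group 9, where 83.8% were lower with a median log2 ratio of -0.46, and Trpc1 in group 8, where 81.5% were lower with a median of -0.41. Trpm4 and Trpv2 were both in group 6, where 72.4% were lower with a median of -0.23. The log2 ratios of the genes themselves were -1.16 for Trpm7, -0.73 for Trpc1, -0.58 for Trpm4 and -0.13 for Trpv2. The part of gene length in these differences was not tested.

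Trpv1, the capsaicin receptor of nociceptive sensory neurons, and Trpc6, a TRPC channel opened by diacylglycerol, were the genes with a higher mean in SHR. Trpv1 went from 0.0245 per 10000 in Wistar to 0.0354 in SHR, a ratio of 1.45. These means are 74.9 and 39.1 times the median shared value of their library. Trpc6 was listed at 0.0109 and 0.0233 per 10000, a ratio of 2.14, and these are 33.3 and 25.7 times the median shared value. On the deposited scale both differences were small, with log2 differences of 0.015 for Trpv1 and 0.018 for Trpc6. A mean of this size can come from a few neurons with several counts or from many with 1, and means over cells cannot tell these apart.

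The Piezo genes were at or near 0. Piezo1, known from endothelial and red blood cells, was listed at 0.00102 per 10000 in Wistar, which is 3.12 times the median shared value there, and at 0 in SHR. The Wistar level would be 2.61 times the smallest mean above 0 in SHR and is close to the SHR median shared value of 0.000906. Values resting on so few counts cannot show whether the strains differ. Piezo2 was listed at 0 in both libraries, as was Trpc5, a TRPC channel of brain neurons. A value of 0 in these means says that no count was assigned to the gene, and whether reads near its end were annotated to it was not tested.

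The remaining TRP genes were mostly under the minimum. Over all 25395 genes, 9006 were at 0 in both libraries, 8768 were above 0 but under the minimum, and 7621 were past it. Of 21 listed for comparison, 20 had a line, 6 of these were at 0 in both libraries (Trpa1, Trpm5, Trpv3, Trpv5, Mcoln3 and Pkd2l1), 13 were above 0 but under the minimum, and 1 was past it. That gene was Mcoln1, which encodes a lysosomal calcium release channel, with 0.194 per 10000 in Wistar and 0.158 in SHR. Pkd2, the polycystin channel of primary cilia and endoplasmic reticulum, stood just under the minimum with 0.0961 and 0.0515. Trpm3, a heat-sensitive channel, had 0.00146 and 0.0145, and its Wistar value rests on very few counts.

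Among other mechanically gated channels and Piezo partners, levels ran from 0 for Tmc1 and Tmc5 to means well above those of the Piezo genes. Of 27 with a line, 12 were past the minimum, with 7 lower and 5 higher in SHR, against 65.6% lower over all genes. The most abundant were Atp2a2, the endoplasmic reticulum calcium pump that binds Piezo1, with 3.24 per 10000 in Wistar and 2.72 in SHR, and Tmem63b, an osmotically gated channel, with 1.91 and 1.16. Stom, a membrane protein reported to modulate mechanically gated channels, had 1.39 and 1.55, and its relative Stoml1 had 0.957 and 0.833. By the rule of size 2 were lower, Tmem63b by 1.65-fold and Pkd1, the polycystin partner of Pkd2, by 2.77-fold from 0.762 to 0.275, and 0 were higher, against 26.5% and 5.22% of all genes. Pkd1 is named for passing the rule. The stretch-sensitive potassium channel genes Kcnk2 and Kcnk10, singled out after their values were seen, had higher means in SHR, with 0.235 and 0.339 per 10000 for Kcnk2 and 0.109 and 0.153 for Kcnk10.

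Regulators of TRP channels were evenly split between lower and higher. Of 34 genes for phospholipase C, phosphoinositide supply, store-operated calcium entry and accessory proteins, 18 were past the minimum, with 9 lower and 9 higher in SHR and a median log2 ratio of -0.12, against 65.6% lower and a median of -0.21 over all genes. The 4 most abundant were Fkbp1a, an immunophilin that binds calcium release channels, at 5.72 and 7.92 per 10000, Plcb4, a phospholipase C activated by Gq-coupled receptors, at 5.82 and 3.66, Fkbp4, another immunophilin, at 2.41 and 2.94, and Rab11a, a GTPase of recycling endosomes, at 1.88 and 2.35. By the rule of size 3 were lower, Plcb4 by 1.59-fold, Plcg1 by 1.73-fold and Pip5k1a, an enzyme of phosphatidylinositol bisphosphate synthesis, by 1.80-fold, against 26.5% of all genes. The kinase gene Prkcd alone was higher by the rule, against 5.22% of all genes, with 0.0697 and 0.153 per 10000, and passed the minimum through its SHR value.

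**Figure D4:**
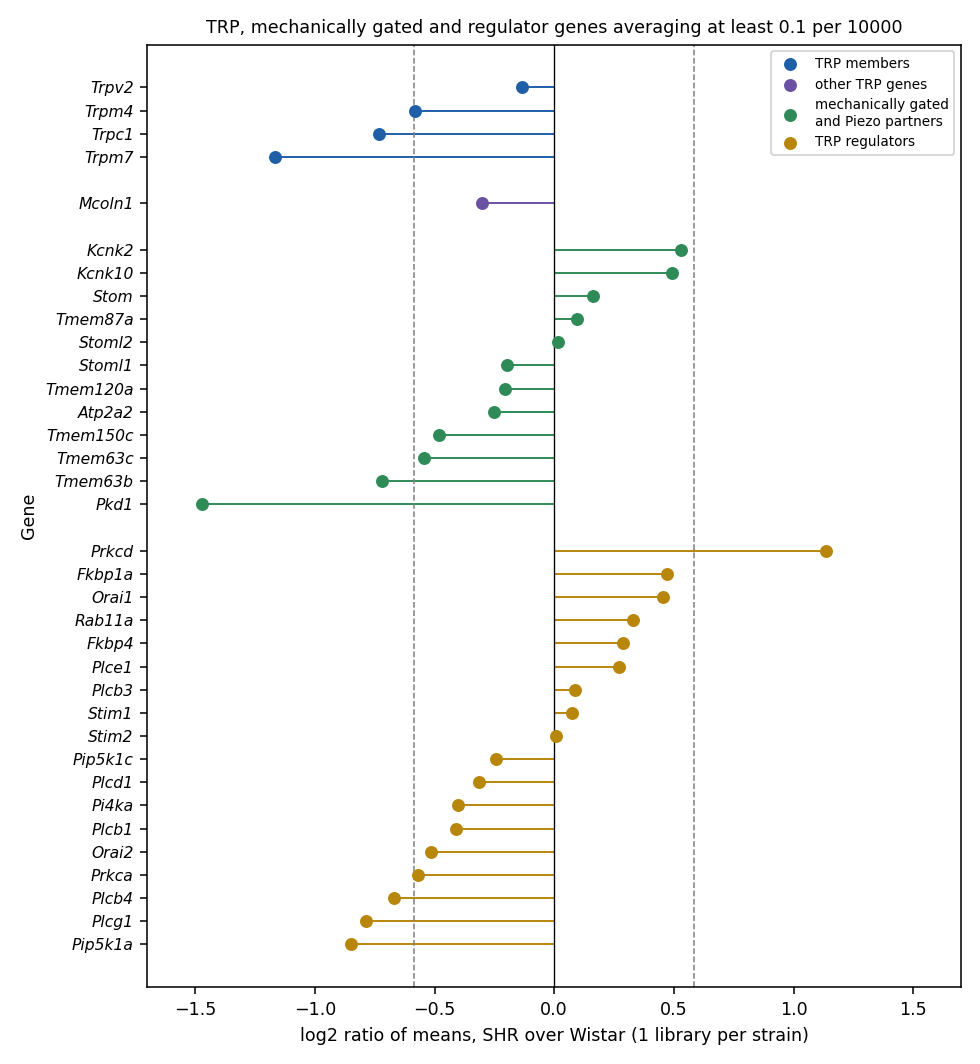
The log2 ratio of means, SHR over Wistar, for the genes of each list that averaged at least 0.1 per 10000, with 1 library per strain and dashed lines at 1.5-fold. The 4 TRP members lie to the left of 0 (Trpv2 to the right once the median gene is set to 0), while the mechanically gated list has 7 genes lower and 5 higher and the regulators have 9 and 9. Trpm4 passed the minimum through its Wistar value alone.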

How the data were processed

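Stellate ganglia of Wistar rats and SHRs were dissociated with collagenase and trypsin and sequenced with 10x Genomics 3′ v3 chemistry. The submitters' processing notes name Cell Ranger 3.0.2, Seurat 3 and the build Rnor_6.0. Filters on cells, doublet treatment and the number of neurons are not given in the sources used here, and averaged values leave no way to look for doublets. The authors deposited averages of the cells they clustered as sympathetic neurons. For each gene of a library, the deposited number is a natural log, taken after adding 1 to the mean over cells of the count scaled to 10000 per cell. A deposited table of the authors' own strain comparison, with fold changes, p-values and shares of cells, was not used.

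The values were converted back to mean counts per 10000, which sum to 10000 over the 25399 lines of each library. Gene names that occur more than once account for 4 lines, which were left out of the counts. Ratios of means were computed without a pseudocount. Genes averaging at least 0.1 per 10000 over both libraries entered the counts, with 1.5-fold as the rule of size. Python 3.11.15, NumPy 2.4.6 and pandas 2.3.3 were used. The genes named were the 9 members, the 4 most abundant genes of each other list, other TRP genes past the minimum and the genes nearest in level to the 2 most abundant members. An item under this rule is not reported here. Further genes are marked where they were chosen after their values were seen, and genes that alone passed a rule are named for it. The members and lists were chosen with earlier results of these data known. Promoters were taken from RefSeq (GRCr8). With 1 library per strain no test was possible. The alternatives tried were other minimums, pseudocounts, fold limits, scalings and a centring on the median gene.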

Additional observations from a re-analysis of the deposited data

How the results depend on the processing

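No paired analysis was possible because there is a single library of either strain. Of the 4 genes past the minimum, 2 were lower in SHR by at least 1.5-fold. This number became 1 with the median gene centred, 1 with a pseudocount of 0.1 per 10000, 1 with a limit of 2-fold, 0 with a pseudocount of 1 and 0 with a minimum of 0.5 per 10000, which leaves Trpv2 alone. By their construction, pseudocounts shrink ratios of low means and a stricter limit or minimum admits fewer genes. With that minimum the number lower by any size was 1 in place of 4. Shares of all genes lower by at least 1.5-fold were not computed for these settings, so the counts cannot be set against genes in general. With no minimum, 1 of 6 genes above 0 in both libraries, Trpc6, was higher by at least 1.5-fold in place of 0, and 4 of 9 other TRP genes were lower in place of 1 of 1. This setting leaves out genes at 0 in SHR alone, which are Piezo1, Trpc7, Trpm6, Trpv4, Trpv6 and Mcoln2. It therefore lowers the number counted as lower, and the share over all genes was not computed for it. The counts were the same when mitochondrial and ribosomal protein genes (19.3% of the Wistar and 21.6% of the SHR total) were excluded before rescaling. They were also the same without the marker genes of non-sympathetic cells (0.308% and 0.159%). Such small shares leave the ratios nearly unchanged by construction, and any TRP counts from other cells remain in the means.

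On the deposited scale, centring adds 0.052 to each log2 difference by construction. This turned the difference of Piezo1 from -0.0015 to 0.051, and left Trpm4 at -0.0052 and Trpv2 at -0.0098. On that scale no other sign changed under the pseudocounts and scalings. On ratios of means the same centring adds 0.21 on the log2 scale, which turned Trpv2 to the higher side and left 3 of the 4 genes lower by any size. Leaving out the marker genes moved none of 7 genes by 0.005 or more, which their small share of the totals made certain in advance. Depth is unknown, so the counting error of a mean is unknown too, and it weighs most on Trpv1, Trpc6 and Piezo1.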

Other observations

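Over 2 libraries a pattern consists of a level and a ratio alone. The distance between log2 means in Wistar and in SHR was searched over 12627 genes above 0 in both libraries. Symbols starting with LOC, AABR, RGD or AC and a digit were left out of this search. By this distance, the genes nearest to Trpv2 were Magee1 (0.894 and 0.829 per 10000), Vamp3 (0.915 and 0.812) and Caprin1 (0.917 and 0.834), at distances of 0.018, 0.028 and 0.032 log2 units. The genes nearest to Trpm7 were Plch2, a phospholipase C gene (0.581 and 0.255 per 10000), Armc9 (0.577 and 0.258) and Pcdh17 (0.552 and 0.251), at distances of 0.034, 0.037 and 0.041.

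Among TRP genes at the lowest levels, Trpc7, Trpm6, Trpv4, Trpv6 and Mcoln2 were listed above 0 in Wistar, at no more than 0.00119 per 10000, and at 0 in SHR. These Wistar values lie near or under the SHR median shared value of 0.000906, so the zeros in SHR cannot be read as a difference. Over all genes, 16000 were above 0 in Wistar and 14645 in SHR. The cold receptor gene Trpm8 had values of 0.00439 and 0.00491 per 10000 in Wistar and SHR. Trpc4, a relative of Trpc5, was listed at 0.00100 and 0.00526, and its Wistar value rests on very few counts. The choice of these genes followed a look at their values.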
